A study of Mus musculus with 36 samples.

Results

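The 33 genes described here serve PPAR-alpha signaling, fatty acid oxidation, and ketogenesis in mouse liver. They were chosen by name, as genes of these pathways whose symbol stood on 1 row of both deposited tables, and they are 33 of 24066 such symbols. Liver was taken from wild-type male C57BL/6JRj mice, 16 weeks old, that were fed chow ad libitum and were not fasted. One set of mice was exposed for 4 weeks to chronic intermittent hypoxia (IH), with 60 cycles per hour between a nadir of 5% and a peak of 21% inspired oxygen, given daily from Zeitgeber time (ZT) 0, which is lights on, to ZT8. The control set breathed air that was cycled in the same way without a fall in oxygen. Livers were collected every 4 hours at ZT0, ZT4, ZT8, ZT12, ZT16, and ZT20 from 3 mice per time point and condition, which gave 36 polyadenylated RNA libraries.

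PPAR-alpha, encoded by Ppara, is a nuclear receptor that binds fatty acids and, as a heterodimer with the retinoid X receptor, turns on genes for the uptake and breakdown of fat in hepatocytes. Fatty acids are bound by FABP1, carried into mitochondria as carnitine esters through CPT1A and CPT2, and shortened 2 carbons at a time by beta-oxidation; very long chains start in peroxisomes, and CYP4A enzymes oxidize the far end of the chain. The acetyl-CoA that results can leave the liver as ketone bodies. In fasting liver this program is strongly induced, and PPAR-alpha activity is known to follow the daily cycle of feeding and fasting.

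All 33 members averaged 0.1 FPKM or more and were among the 13215 genes tested. FPKM is scaled to transcript length, so levels can be compared between genes, but the deposited tables give no counts and the depth behind each value is unknown. Differences are on the log2(FPKM + 1) scale, which understates those of genes near or below 1 FPKM. In bulk liver, fewer cells of a type and less RNA per cell cannot be told apart. The 7 hepatocyte markers summed to between 52417 and 90065 FPKM in every library, whereas 6 adipocyte markers summed to at most 2.30 FPKM. Single libraries stood apart. Saa1, an acute-phase gene, was above 10000 FPKM in 3 libraries, IH ZT0 replicate 2, control ZT12 replicate 2, and control ZT16 replicate 3. In these 3 libraries 25, 27, and 30 of the 33 members, in that order, had their lowest value of the group, against 45.5%, 62.3%, and 55.8% of all genes tested. Control ZT12 replicate 2 also held the highest sum of Kupffer cell markers (166 FPKM, against 59.9 FPKM or less elsewhere) and of leukocyte markers (205 FPKM, against 13.9 FPKM or less elsewhere). In control ZT8 replicate 1 all 33 members had the lowest value of the 3 mice, as did 57.2% of all genes, and Saa1 was at 828 FPKM there. What part these libraries had in the results was not tested beyond leaving them out.

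Promoter sequences from RefSeq (GRCm38.p6, 250 bases before to 50 after the start) were given for 25 of the 33 members. AGGTCA, the hexamer that nuclear receptors bind, was found on either strand in 8 of these 25, in Acadm, Acadvl, Acot3, Cd36, Cpt1a, Fabp1, Plin2, and Plin5, and in 35.7% of the 28 member promoters against 16.3% of all 32851 promoters. A member can have more than 1 promoter among the 28, and overlapping promoters of Acot3 hold the same hexamer, counted for each. The PPAR element DR1, searched as a direct repeat of AGGNCA with 1 base between the copies, was in the promoter of Fabp1 alone and in 0.381% of all promoters. CACGTG, the E-box that clock proteins bind, was in Plin2 and Fgf21 and in 7.15% of all promoters, and TTATGNAA, part of the D-box, was in 0 of the 28 and in 3.38% of all. A match is a description of the letters and not a binding site. The hexamer can lie within a DR1. The 3 promoters below are shown because they carry the DR1 of the most abundant member, the hexamer of the enzyme that gates mitochondrial entry, and the E-box of the member with the largest called difference between the conditions. Each runs 5′ to 3′ from 250 bases before the start to 10 after it on the strand of the gene, with the matches in capitals.
Fabp1, chr6:71199629-71199888, plus strand: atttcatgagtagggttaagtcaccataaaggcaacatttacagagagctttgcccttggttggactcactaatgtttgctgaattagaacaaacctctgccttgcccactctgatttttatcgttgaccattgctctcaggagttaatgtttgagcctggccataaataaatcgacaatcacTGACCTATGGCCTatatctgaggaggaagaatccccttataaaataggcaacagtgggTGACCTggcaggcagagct
Cpt1a, chr19:3323051-3323310, plus strand: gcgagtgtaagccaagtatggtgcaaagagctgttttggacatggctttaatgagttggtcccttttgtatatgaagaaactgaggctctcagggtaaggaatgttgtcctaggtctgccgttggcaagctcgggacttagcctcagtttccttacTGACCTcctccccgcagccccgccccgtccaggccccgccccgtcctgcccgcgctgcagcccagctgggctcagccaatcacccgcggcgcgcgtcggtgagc
Plin2, chr4:86670050-86670309, minus strand: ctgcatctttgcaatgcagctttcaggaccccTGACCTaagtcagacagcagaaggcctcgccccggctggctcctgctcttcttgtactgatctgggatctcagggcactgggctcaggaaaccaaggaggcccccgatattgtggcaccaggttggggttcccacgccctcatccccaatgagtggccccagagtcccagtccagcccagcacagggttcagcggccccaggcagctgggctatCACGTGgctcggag
The DR1 of Fabp1 began 67 bases before the start and a further hexamer 9 bases before it. The hexamer of Cpt1a lay 94 bases before the start, and that of Plin2 218 bases before it. The E-box of Plin2 overlapped the start itself. These starts are those of RefSeq. The whole stretch printed for Cpt1a lies inside the gene as GENCODE places it, which begins at 3322334. The start used for Fabp1 also lies inside its GENCODE gene, which begins at 71199827.

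Ppara (chromosome 15, 85734983 to 85802819, plus strand) had a mean level of 20.5 FPKM in the controls and 21.4 FPKM in the IH mice. In IH the 3 mice were at 13.9, 13.9, and 12.2 FPKM at ZT0, at 19.7, 21.4, and 26.1 FPKM at ZT4, and at 32.5, 30.8, and 33.1 FPKM at ZT8. They were at 20.5, 23.8, and 22.7 FPKM at ZT12, at 24.5, 18.1, and 21.7 FPKM at ZT16, and at 18.7, 16.7, and 14.7 FPKM at ZT20. The level thus stood highest at ZT8, toward the end of the light phase and of the daily exposure, and the 3 mice of ZT8 did not overlap with those of any other time point in IH. In control the values were 23.1, 17.0, and 12.7 FPKM at ZT0, 20.2, 12.6, and 16.6 FPKM at ZT4, and 22.9, 33.4, and 33.5 FPKM at ZT8. Later in the day they were 24.0, 8.71, and 24.1 FPKM at ZT12, 24.2, 22.7, and 14.0 FPKM at ZT16, and 20.8, 20.7, and 18.1 FPKM at ZT20. The highest group mean was at ZT8 in control as well, but mice of 1 time point lay further apart, and the lowest value of all came from control ZT12 replicate 2. A 24-h cosine on the log2 scale had its maximum at ZT9.55 ± 0.60 (SE) in IH, with a nominal P of 2.40e-05, and at ZT10.0 ± 3.45 in control, with a P of 0.553. The cosines of the 2 conditions did not pass the test of their difference (interaction, unadjusted p of 0.208, and no member passed after adjustment). Without the 3 libraries of high Saa1, the P in control was 0.00952 with a maximum at ZT11.9, and that in IH was 7.73e-05.

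**Figure D1:**
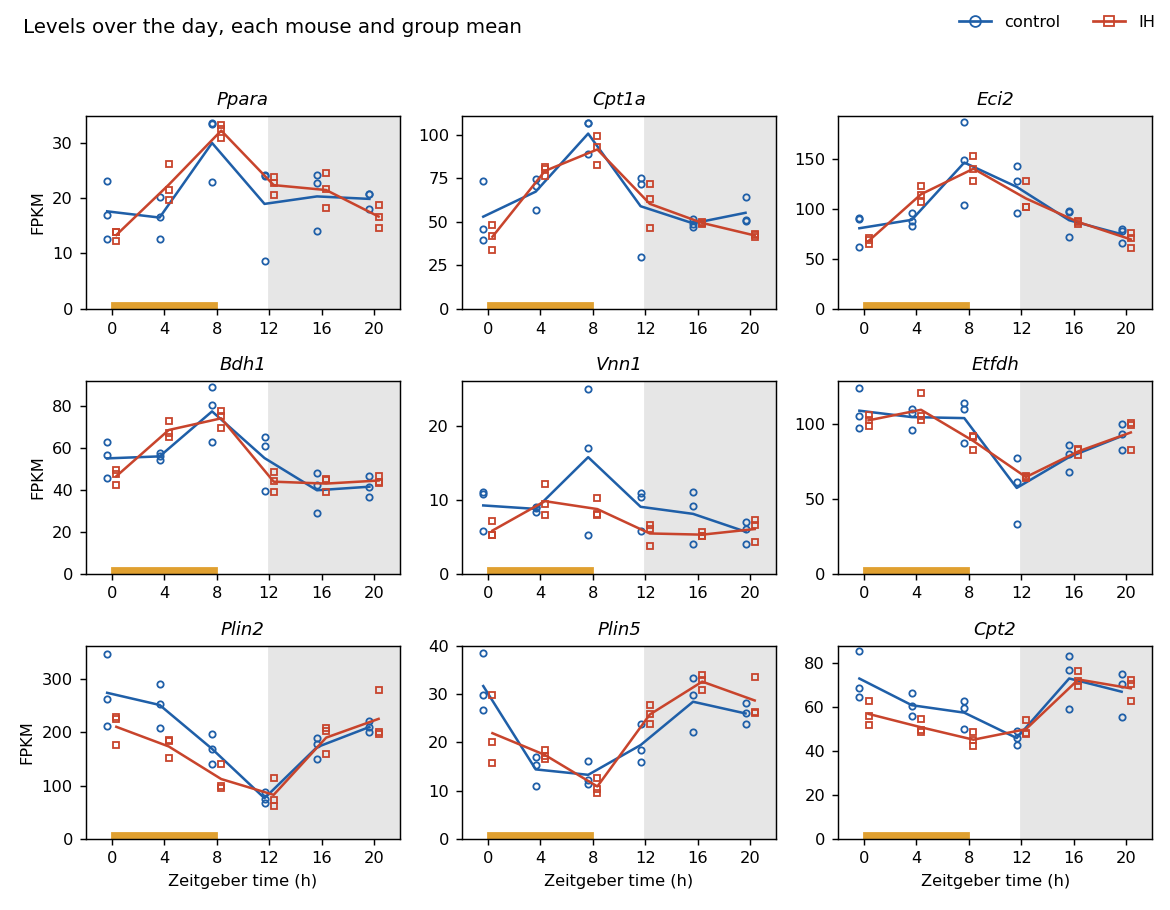
Level (FPKM, vertical axis) of 9 members against Zeitgeber time (h); circles are single control mice, squares are single IH mice, and lines join the means of 3 mice. The gray area is the dark phase and the orange bar the daily exposure. Ppara, Cpt1a, Eci2, and Bdh1 stand highest at ZT8 in both conditions, and Plin2 stands lowest at ZT12 in both.

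The question of whether the daily rhythm of these genes is altered by IH was addressed first within each condition. A gene was called rhythmic when the F test of its cosine gave a nominal P of 0.01 or less. In control 7 of the 33 members were rhythmic, against 20.0% of all genes tested: Crat, Acaa2, Eci2, Etfdh, Bdh1, Plin2, and Plin5. In IH 12 were rhythmic, against 39.9% of all genes: Ppara, Cpt1a, Cpt2, Crat, Eci2, Etfdh, Pex11a, Cyp4a31, Bdh1, Plin2, Plin5, and Vnn1. Both conditions called 6 members (all genes, 15.5%) and IH alone another 6 (all genes, 24.4%). The shares of the members were thus close to those of all genes. Acaa2 was called in control alone, and 20 members were called in neither condition. A test of any change over the 6 time points, which assumes no curve, passed for 7 members in control and for 22 in IH at an adjusted p under 0.05, against 21.5% and 49.0% of all genes. In control these were Cpt2, Eci2, Etfdh, Bdh1, Angptl4, Plin2, and Plin5. The 11 members that did not pass in IH were Cd36, Fabp1, Acadvl, Acads, Hadha, Eci1, Ehhadh, Acaa1b, Cyp4a10, Cyp4a14, and Angptl4.

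A larger number of calls in IH went along with a smaller spread between mice. The SD between mice of 1 group on the log2 scale had a median over the members of 0.32 in control and 0.18 in IH. It was larger in control for 29 of the 33 members, as it was for 76.2% of all genes, and for the same number without the ZT12 mice. When 1 spread was shared by both conditions, 9 members were rhythmic in control and 9 in IH, against 28.5% and 31.5% of all genes. Cpt1a and Cpt2 were then called in control too, and the IH calls of Pex11a, Cyp4a31, and Vnn1 were lost. With the shared spread 10 members varied over the 6 time points in control and 11 in IH. With library weights the count in control was 23. The shares of all genes that varied with time under these settings were not computed. With library weights 11 members were rhythmic in control and 17 in IH, against 31.6% and 48.8% of all genes. Without the 3 libraries of high Saa1, 12 were rhythmic in control and 15 in IH, against 27.4% and 42.4% of all genes. The members that then passed in control in addition were Ppara, Fabp1, Cpt1a, Acadl, and Acot3.

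The difference in rhythm was tested with an interaction term over the 36 libraries. The cosine of 0 members and of 0% of all genes differed at an adjusted p under 0.05 (limma). At an unadjusted p under 0.05 there was 1 member, Cpt2, at 0.0402, against 4.91% of all genes, and Plin2 followed at 0.0503. Without the 3 libraries of high Saa1 the count at an unadjusted p was 6, against 10.7% of all genes, and again 0 members passed after adjustment. A call in IH and none in control is therefore not a shown difference for any member.

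The fitted maxima of the 13 members called in either condition lay by day for some genes and by night for others. In IH, Bdh1, Vnn1, Cyp4a31, Cpt1a, Eci2, and Ppara had their maximum between ZT5.16 and ZT9.55. Pex11a, Plin5, Cpt2, Crat, and Plin2 had it between ZT15.6 and ZT22.1, Etfdh at ZT1.16, and Acaa2 at ZT12.0. In control the first 6 genes had it between ZT5.49 and ZT10.0. All 6 members rhythmic in both conditions had an earlier maximum in IH, with a median difference of -0.77 h, as did 1455 of the 2047 genes rhythmic in both, whose median was -0.65 h. The largest of these differences was that of Plin2, whose maximum lay at ZT0.31 ± 0.58 (SE) in control and ZT22.1 ± 0.60 in IH. Over all 33 members, called or not, the fitted maximum was earlier in IH for 24 and later for 9. Of all genes tested it was earlier for 7623 and later for 5588.

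**Figure D2:**
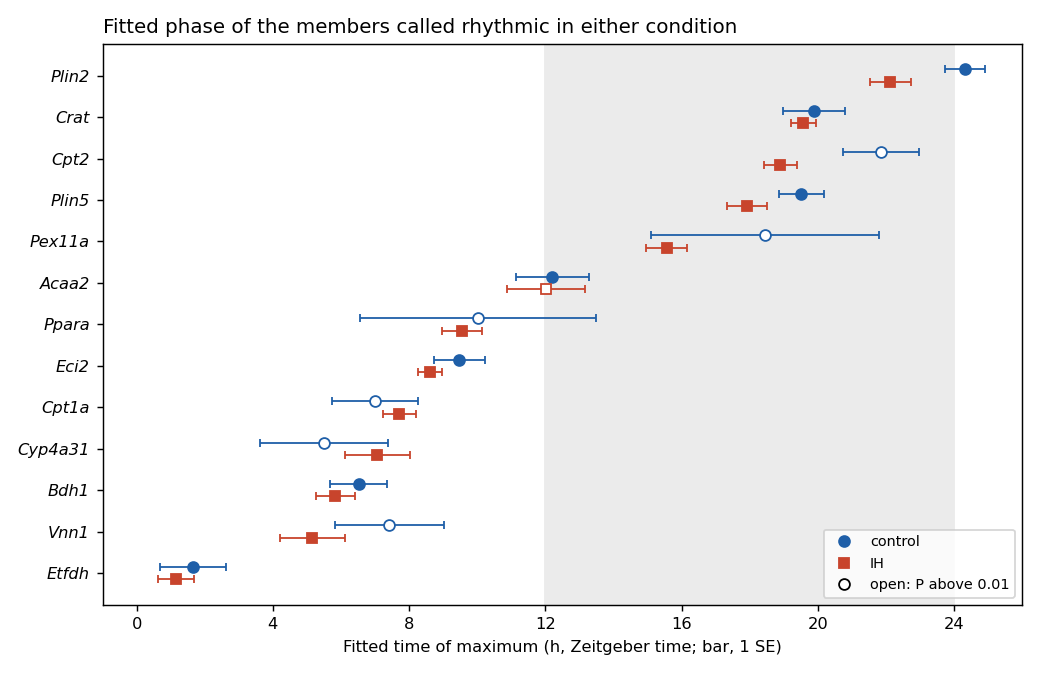
Fitted time of maximum (h, horizontal axis; bars, 1 SE) of the 13 members called rhythmic in either condition, with control as circles and IH as squares; open symbols had a nominal P above 0.01 and gray marks the dark phase. The maxima of Bdh1, Cpt1a, Eci2, and Ppara lie in the light phase and those of Plin5, Cpt2, and Crat in the dark phase in both conditions. The control maximum of Plin2 at ZT0.31 is drawn just past 24 h.

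Uptake and binding were represented by Cd36, a fatty acid translocase of the plasma membrane, and Fabp1, the fatty acid binding protein of the hepatocyte cytosol. Fabp1 was the most abundant member. Its level ranged from 3769.6 to 12069 FPKM in control, with a median of 7777 FPKM, and from 4067 to 10489.8 FPKM in IH, with a median of 8274 FPKM. The lowest value in each condition came from a library of high Saa1, and the conditions overlapped over most of their range. In control Cd36 was at 3.21, 3.84, and 4.42 FPKM at ZT0, at 6.71, 5.31, and 6.29 FPKM at ZT4, at 3.57, 8.34, and 7.29 FPKM at ZT8, at 5.32, 2.72, and 5.21 FPKM at ZT12, at 5.72, 4.43, and 6.18 FPKM at ZT16, and at 3.62, 4.92, and 3.28 FPKM at ZT20. Under IH Cd36 was at 3.53, 5.32, and 5.73 FPKM at ZT0, at 5.13, 5.87, and 4.23 FPKM at ZT4, at 5.87, 4.50, and 3.28 FPKM at ZT8, at 2.70, 3.84, and 2.61 FPKM at ZT12, at 3.68, 4.47, and 6.28 FPKM at ZT16, and at 4.42, 3.15, and 4.85 FPKM at ZT20. The conditions overlapped for Cd36 at all 6 time points. Neither gene was called rhythmic or different in level. At ZT4 the 3 IH mice stood at 9110.3, 10489.8, and 9451 FPKM of Fabp1 and the controls at 7781, 7773, and 7108 FPKM. These groups did not overlap, but the difference of 0.36 ± 0.24 (SE) on the log2 scale did not pass the test (adjusted p = 0.480).

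Of the carnitine shuttle, Cpt1a encodes the outer membrane transferase that limits entry of long chains into mitochondria, Cpt2 the inner membrane enzyme that frees them again, and Crat the carnitine acetyltransferase. Cpt1a (chromosome 19, 3322334 to 3385733, plus strand) was at its highest at ZT8. The controls stood there at 88.8, 107, and 107 FPKM and the IH mice at 92.9, 82.9, and 99.2 FPKM. At its lowest the mean was 49.2 ± 2.23 FPKM (SD, n = 3) in control, at ZT16, and 41.5 ± 7.26 FPKM in IH, at ZT0, so the day's range was 2.05-fold and 2.21-fold. The cosine had its maximum at ZT7.00 ± 1.25 (SE) in control, with a P of 0.0232, and at ZT7.71 ± 0.49 in IH, with a P of 2.03e-06. Without the 3 libraries of high Saa1 the P in control was 0.000586. At ZT20 the IH mice, at 43.0, 41.2, and 42.4 FPKM, were all below the controls, at 50.9, 50.5, and 64.4 FPKM, with a difference of -0.37 ± 0.23 on the log2 scale that did not pass (adjusted p = 1).

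Cpt2 (chromosome 4, 107903981 to 107923610, minus strand) was 1 of the 2 members that differed in level between the conditions. At ZT0 the controls were at 85.4, 64.3, and 68.6 FPKM and the IH mice at 62.7, 51.6, and 55.9 FPKM. At ZT4 they were at 60.2, 66.1, and 55.7 FPKM against 54.2, 48.5, and 49.3 FPKM, and at ZT8 at 49.8, 62.7, and 59.4 FPKM against 48.3, 42.0, and 44.7 FPKM. At each of these 3 time points, which begin, divide, and end the daily exposure, every IH mouse was below every control. At ZT12 the controls were at 45.9, 42.6, and 48.7 FPKM and the IH mice at 47.4, 54.0, and 47.9 FPKM. At ZT16 the values were 76.5, 82.9, and 59.1 FPKM against 76.3, 69.2, and 71.6 FPKM, and at ZT20 55.3, 74.9, and 70.2 FPKM against 70.2, 72.0, and 62.7 FPKM. In the dark phase the conditions overlapped. Over ZT4 and ZT8 together the level was lower in IH, with a log2 difference of -0.30 ± 0.07 (SE; adjusted p = 0.0257), and over all time points the difference was -0.13 ± 0.06 (adjusted p = 0.402). The cosine had its maximum at ZT18.9 ± 0.49 (SE) in IH, with a P of 1.74e-06, and at ZT21.8 ± 1.13 in control, with a P of 0.0115.

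Crat was highest at night. In control Crat was at 19.0, 9.78, and 11.7 FPKM at ZT0, at 7.36, 6.96, and 5.17 FPKM at ZT4, at 3.35, 10.5, and 8.30 FPKM at ZT8, at 7.15, 4.62, and 8.41 FPKM at ZT12, at 15.6, 17.4, and 8.67 FPKM at ZT16, and at 9.89, 17.4, and 12.8 FPKM at ZT20. Under IH Crat was at 10.5, 8.80, and 10.5 FPKM at ZT0, at 8.28, 6.94, and 6.93 FPKM at ZT4, at 4.90, 4.12, and 4.10 FPKM at ZT8, at 6.75, 8.19, and 4.33 FPKM at ZT12, at 15.5, 13.3, and 15.9 FPKM at ZT16, and at 20.5, 16.8, and 15.1 FPKM at ZT20. The group means spanned a 2.14-fold range in control, from ZT4 to ZT16, and a 3.99-fold range in IH, from ZT8 to ZT20. The gene was rhythmic in both conditions, with P values of 0.00226 (control) and 2.61e-08 (IH), and its maximum lay at ZT19.9 and ZT19.6.

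Mitochondrial beta-oxidation was represented by 12 members. The acyl-CoA dehydrogenases Acadvl, Acadl, Acadm, and Acads take chains from very long to short, the trifunctional protein (Hadha and Hadhb), Hadh, and Acaa2 carry out the later steps, and Decr1, Eci1, and Eci2 deal with double bonds. Etfdh passes the electrons to ubiquinone. These were abundant transcripts, several with a narrow daily range. Acaa2, the last thiolase of the pathway, had a median of 466 FPKM in the controls and 512 FPKM in the IH mice, and the others had condition means between 44.0 and 149 FPKM. The highest group mean of Acadvl, Acads, and Hadha exceeded the lowest by 1.15-fold, 1.13-fold, and 1.22-fold in control and by 1.10-fold, 1.14-fold, and 1.15-fold in IH. Of the 12, 3 were rhythmic in control and 2 in IH, where the shares of all genes were 20.0% and 39.9%. Hadhb shared 19.7% of the 50-base windows of its annotated transcripts with other genes, Gm13910 and Gm9108 among them, and 14.8% of the 100-base windows. Reads could thus be split between them, and the level of Hadhb is uncertain.

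Eci2, an isomerase for unsaturated chains that is found in both mitochondria and peroxisomes, stood highest at ZT8 in both conditions. In control Eci2 was at 90.6, 61.9, and 89.6 FPKM at ZT0, at 88.4, 96.4, and 82.5 FPKM at ZT4, at 104, 187, and 149 FPKM at ZT8, at 143, 95.6, and 128 FPKM at ZT12, at 97.7, 96.9, and 71.5 FPKM at ZT16, and at 65.6, 80.3, and 78.4 FPKM at ZT20. Under IH Eci2 was at 70.7, 68.6, and 64.5 FPKM at ZT0, at 107, 114, and 123 FPKM at ZT4, at 140.4, 128, and 153 FPKM at ZT8, at 128, 102, and 102 FPKM at ZT12, at 87.2, 85.4, and 88.1 FPKM at ZT16, and at 76.2, 61.4, and 71.0 FPKM at ZT20. The mice of ZT8 and those of ZT20 did not overlap in either condition. Its rhythm P was 0.000320 in control and 1.70e-08 in IH, with the maximum at ZT9.47 ± 0.75 (SE) and ZT8.62 ± 0.36. Etfdh was lowest at ZT12, at 61.6, 33.2, and 77.5 FPKM in control and at 65.5, 63.8, and 64.9 FPKM in IH, and its mean peaked at 109 ± 13.9 FPKM (SD, n = 3) at ZT0 among controls and 109.7 ± 9.66 FPKM at ZT4 under IH. The rhythm P was 0.00367 in control and 4.66e-06 in IH. Acaa2 passed in control with a P of 0.00759 and missed the threshold in IH with a P of 0.0128, and its maximum lay at ZT12.2 and ZT12.0. Its control call was lost in 13 of the 18 fits that left out 1 library, with a P between 0.000509 and 0.0218 over the 18.

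Of the peroxisomal members, Ehhadh encodes the bifunctional enzyme, Acaa1b a thiolase, and Pex11a a protein of peroxisome division. Acaa1b was the most abundant member after Fabp1, at a mean of 586 FPKM in the controls and 521 FPKM in the IH mice, but 30.5% of its 50-base windows were shared with Acaa1a. Of its 100-base windows 19.3% were shared. At ZT12 its IH mice were at 368, 405, and 296 FPKM, below the controls at 589, 464, and 539 FPKM, with a difference of -0.58 ± 0.29 on the log2 scale that did not pass (adjusted p = 0.221). Pex11a stood highest at ZT16 in both conditions. In control Pex11a was at 32.3, 28.1, and 24.7 FPKM at ZT0, at 25.6, 23.3, and 17.2 FPKM at ZT4, at 17.2, 39.1, and 40.2 FPKM at ZT8, at 27.5, 5.84, and 37.1 FPKM at ZT12, at 52.8, 51.2, and 26.8 FPKM at ZT16, and at 25.1, 33.3, and 26.9 FPKM at ZT20. Under IH Pex11a was at 27.0, 20.8, and 18.7 FPKM at ZT0, at 24.2, 23.8, and 26.8 FPKM at ZT4, at 25.9, 23.0, and 27.6 FPKM at ZT8, at 30.2, 30.9, and 32.8 FPKM at ZT12, at 44.4, 36.5, and 43.3 FPKM at ZT16, and at 35.9, 29.3, and 32.8 FPKM at ZT20. The lowest control values of ZT12 and ZT16 came from the libraries of high Saa1. The rhythm P of Pex11a was 2.74e-05 in IH, or 0.0767 with a spread shared by the conditions, and 0.534 in control, or 0.0207 without the 3 libraries. For Ehhadh the control levels ran from 24.6 FPKM, in control ZT12 replicate 2, to 129.8 FPKM, and the IH levels from 50.9 to 145 FPKM.

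The CYP4A omega-hydroxylases and the acyl-CoA thioesterases Acot1, Acot2, and Acot3 are among the most responsive targets of PPAR-alpha, and 4 of the 6 had the widest spread between control mice of 1 time point among the 33 members. The SD between control mice on the log2 scale was 2.22 for Cyp4a14, 1.53 for Cyp4a10, 1.15 for Acot3, and 1.02 for Acot1, and in IH it was 1.16, 0.87, 0.64, and 0.54. In control Cyp4a14 was at 63.6, 7.78, and 71.9 FPKM at ZT0, at 10.1, 8.82, and 10.1 FPKM at ZT4, at 3.80, 195, and 84.1 FPKM at ZT8, at 100.2, 0.553, and 48.4 FPKM at ZT12, at 40.2, 57.4, and 4.44 FPKM at ZT16, and at 3.77, 86.5, and 7.72 FPKM at ZT20. Under IH Cyp4a14 was at 53.3, 7.87, and 49.5 FPKM at ZT0, at 168, 116, and 35.1 FPKM at ZT4, at 123, 102, and 53.6 FPKM at ZT8, at 27.7, 58.8, and 4.79 FPKM at ZT12, at 27.8, 32.5, and 98.6 FPKM at ZT16, and at 62.1, 30.5, and 54.0 FPKM at ZT20. At ZT8 the controls alone ran from 3.80 to 195 FPKM. At ZT4 the lowest IH mouse, at 35.1 FPKM, was above the highest control, at 10.1 FPKM, so the groups did not overlap, with a ratio of means of 11.0. This difference, 3.07 ± 1.36 on the log2 scale, did not pass when 1 spread was taken over all groups (adjusted p = 0.250), and it passed when the 6 libraries of ZT4 were tested alone (adjusted p = 0.0315). The share of all genes that passed with these 6 libraries alone was not computed, so the pass cannot be set against it. Over ZT4 and ZT8 together the difference was 2.06 ± 0.79 (adjusted p = 0.121). It passed (2.65 ± 0.65, adjusted p = 0.0315) without control ZT8 replicate 2, the control of 195 FPKM. In no other fit that left out 1 library of ZT4 or ZT8 did this gene pass.

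Cyp4a10 ranged from 3.94 to 256 FPKM in control and from 16.0 to 182 FPKM in IH, and the lowest value of each condition came from a library of high Saa1. Cyp4a31, the least abundant of the 3 at a mean of 3.54 FPKM in the controls and 3.32 FPKM in the IH mice, was rhythmic in IH, with a P of 0.00348 and a maximum at ZT7.07 ± 0.96 (SE), but with a P of 0.0254 when the conditions shared 1 spread. Its IH mice of ZT8 were at 4.30, 5.23, and 5.64 FPKM and those of ZT0 at 3.10, 1.76, and 1.96 FPKM. Of the 50-base windows of Cyp4a10 and Cyp4a31, 29.8% and 20.6% were shared with other genes, Cyp4a32 and each other among them, and reads could be split among them, whereas Cyp4a14 shared 0.235%. Of the 100-base windows of Cyp4a10 and Cyp4a31, 12.2% and 7.33% were shared.

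Acot1, the cytosolic thioesterase, ranged from 3.32 to 46.4 FPKM in control and from 3.32 to 31.7 FPKM in IH. Acot2, its mitochondrial relative, ranged from 0.449 to 6.31 FPKM in control and from 0.892 to 5.25 FPKM in IH. Acot3, a peroxisomal enzyme, had the widest daily range of group means among the members, 26.7-fold in control and 11.8-fold in IH. These ratios rest on low means of 0.224 FPKM (control ZT4) and 0.501 FPKM (IH ZT0). In control the mice of ZT8, the highest group, overlapped with those of ZT4. In control Acot3 was at 2.16, 0.213, and 0.868 FPKM at ZT0, at 0.0804, 0.388, and 0.203 FPKM at ZT4, at 0.0930, 10.6, and 7.25 FPKM at ZT8, at 7.93, 0.383, and 4.22 FPKM at ZT12, at 3.86, 7.73, and 0.657 FPKM at ZT16, and at 0.264, 2.52, and 0.312 FPKM at ZT20. Under IH Acot3 was at 0.496, 0.0719, and 0.935 FPKM at ZT0, at 4.25, 0.930, and 5.05 FPKM at ZT4, at 5.22, 9.89, and 2.57 FPKM at ZT8, at 1.92, 2.66, and 1.54 FPKM at ZT12, at 2.46, 1.83, and 7.25 FPKM at ZT16, and at 1.90, 2.18, and 1.26 FPKM at ZT20. The groups were apart at ZT4 and overlapped at ZT8, and the ZT4 difference of 1.70 ± 0.72 on the log2 scale did not pass (adjusted p = 0.224). All 3 Acot genes varied with time in IH (adjusted p between 0.00638 and 0.0253), and none did in control (adjusted p between 0.294 and 0.516). This is not a shown difference between the conditions. The spread between mice of all 3 was larger in control, and their cosines did not pass the interaction test (unadjusted p between 0.493 and 0.994). From 19.1% to 27.7% of their 50-base windows were shared with other genes, other Acot genes among them, so their levels are uncertain. Of their 100-base windows, the length of a read, 12.4% (Acot1), 17.1% (Acot2), and 13.8% (Acot3) were shared.

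**Figure D3:**
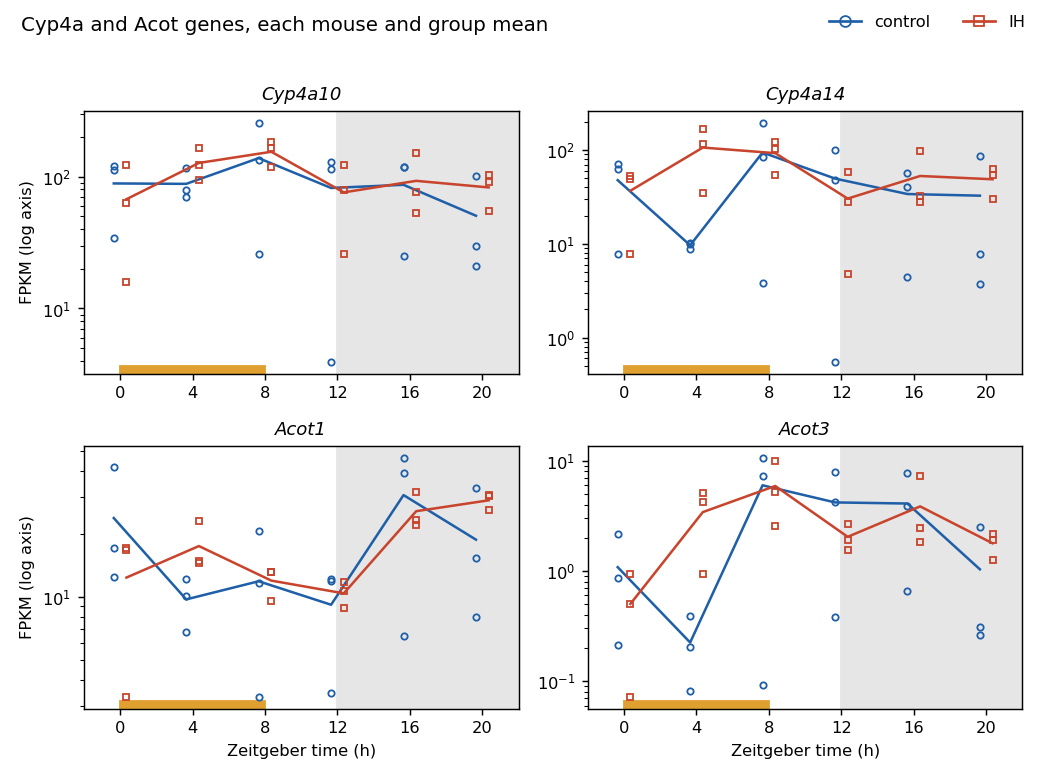
Level (FPKM, log vertical axis) of Cyp4a10, Cyp4a14, Acot1, and Acot3 against Zeitgeber time (h), with circles for control mice, squares for IH mice, and lines joining the means of 3 mice; gray is the dark phase and the orange bar the daily exposure. At ZT4 all 3 IH mice lie above all 3 controls for Cyp4a14, Acot1, and Acot3, and at ZT8 the controls of Cyp4a14 spread from 3.80 to 195 FPKM.

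Ketogenesis was represented by Bdh1, which encodes the mitochondrial dehydrogenase that turns acetoacetate into beta-hydroxybutyrate. In control Bdh1 was at 62.7, 45.7, and 56.4 FPKM at ZT0, at 54.0, 57.6, and 55.9 FPKM at ZT4, at 62.9, 88.7, and 80.2 FPKM at ZT8, at 60.6, 39.3, and 65.2 FPKM at ZT12, at 47.9, 42.2, and 29.1 FPKM at ZT16, and at 36.5, 46.3, and 41.5 FPKM at ZT20. Under IH Bdh1 was at 49.5, 42.2, and 47.6 FPKM at ZT0, at 72.8, 65.3, and 67.2 FPKM at ZT4, at 75.2, 69.1, and 77.6 FPKM at ZT8, at 48.5, 44.2, and 38.7 FPKM at ZT12, at 45.1, 39.0, and 44.6 FPKM at ZT16, and at 46.3, 43.2, and 43.6 FPKM at ZT20. The mice of ZT8 were above those of ZT16, so the 2 time points did not overlap in either condition. The rhythm P was 0.000929 in control and 1.39e-05 in IH, with the maximum at ZT6.52 ± 0.83 (SE) and ZT5.83 ± 0.57. At ZT4 the IH mice, at 72.8, 65.3, and 67.2 FPKM, were above the controls, at 54.0, 57.6, and 55.9 FPKM, with a difference of 0.29 ± 0.16 on the log2 scale (adjusted p = 0.381 with all groups, 0.0473 with the 6 libraries of ZT4 alone). The share of all genes that passed with these 6 libraries alone was not computed.

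Fgf21, a hormone that the fasting liver secretes, was low, with medians of 0.752 FPKM in the controls and 1.25 FPKM in the IH mice. In control Fgf21 was at 0.195, 0.493, and 0.701 FPKM at ZT0, at 2.35, 0.916, and 0.402 FPKM at ZT4, at 1.01, 2.69, and 2.15 FPKM at ZT8, at 0.533, 0.0504, and 0.803 FPKM at ZT12, at 1.04, 0.435, and 0.540 FPKM at ZT16, and at 2.36, 0.523, and 1.76 FPKM at ZT20. Under IH Fgf21 was at 1.05, 1.28, and 1.18 FPKM at ZT0, at 2.84, 3.01, and 2.64 FPKM at ZT4, at 0.737, 0.530, and 1.04 FPKM at ZT8, at 1.26, 1.34, and 0.197 FPKM at ZT12, at 1.76, 0.903, and 0.752 FPKM at ZT16, and at 5.51, 1.24, and 1.496 FPKM at ZT20. At ZT0 and at ZT4 every IH mouse was above every control. The log2 differences of 0.58 ± 0.35 and 0.88 ± 0.35 did not pass (adjusted p = 0.763 and 0.194). Angptl4 encodes a secreted inhibitor of lipoprotein lipase. It varied with time in control (adjusted p = 0.0275), from 32.7 ± 2.80 FPKM (SD, n = 3) at ZT4 to 79.9 ± 14.8 FPKM at ZT20, and did not pass in IH (adjusted p = 0.425). The cosine of Angptl4 did not pass the interaction test (unadjusted p = 0.0630). At ZT4 its IH mice, at 47.1, 55.5, and 65.2 FPKM, were above the controls, at 35.4, 32.7, and 29.8 FPKM, and at ZT16 they were below them, at 23.7, 37.0, and 38.9 FPKM against 76.2, 80.5, and 41.6 FPKM. The log2 differences of 0.75 ± 0.41 and -0.95 ± 0.41 did not pass with all groups (adjusted p = 0.366 and 1), and that of ZT4 passed with the 6 libraries of ZT4 alone (adjusted p = 0.0315). For that last fit, the share of all genes that passed was not computed.

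Both lipid droplet members were rhythmic in both conditions. Plin2 (chromosome 4, 86648386 to 86670060, minus strand) coats droplets in hepatocytes. Its controls were at 348, 212, and 263 FPKM at ZT0, at 291, 254, and 209 FPKM at ZT4, and at 141, 196, and 169.6 FPKM at ZT8. The IH mice were at 225, 229, and 177 FPKM, at 185, 183, and 152 FPKM, and at 140.5, 99.9, and 96.2 FPKM at the same times. At ZT4 and at ZT8 every IH mouse was below every control, and at ZT0 the groups overlapped. At ZT12 the controls were at 67.5, 87.3, and 73.9 FPKM and the IH mice at 72.6, 114, and 60.7 FPKM. At ZT16 they were at 189, 177, and 151 FPKM and at 208, 159, and 202 FPKM, and at ZT20 at 209, 199.8, and 221 FPKM and at 279, 200.3, and 196 FPKM. From ZT12 on the conditions overlapped, and ZT12 was the lowest point of both. Over ZT4 and ZT8 together Plin2 was lower in IH, with a log2 difference of -0.56 ± 0.12 (SE; adjusted p = 0.0223), and that over all time points, -0.20 ± 0.09, did not pass (adjusted p = 0.439). Its rhythm had a P of 1.35e-05 in control and 2.63e-05 in IH.

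Plin5, which ties droplets to mitochondria, had a rhythm P of 6.46e-05 in control and 2.24e-05 under IH. It was lowest at ZT8, at 11.5, 16.2, and 12.2 FPKM in control and 10.3, 9.61, and 12.7 FPKM in IH. The mean was highest, 31.7 ± 6.12 FPKM (SD, n = 3), at ZT0 in control and 32.6 ± 1.62 FPKM at ZT16 in IH, and the fitted maximum was at ZT19.5 ± 0.65 (SE) and ZT17.9 ± 0.59. Vnn1 encodes the pantetheinase, which releases the vitamin precursor of coenzyme A. In control Vnn1 was at 10.8, 5.80, and 11.1 FPKM at ZT0, at 9.02, 8.39, and 8.86 FPKM at ZT4, at 5.30, 24.9, and 17.0 FPKM at ZT8, at 10.4, 5.81, and 10.9 FPKM at ZT12, at 11.0, 9.22, and 4.07 FPKM at ZT16, and at 4.02, 6.95, and 6.10 FPKM at ZT20. Under IH Vnn1 was at 7.09, 5.19, and 5.21 FPKM at ZT0, at 12.1, 9.46, and 7.89 FPKM at ZT4, at 10.2, 8.06, and 7.96 FPKM at ZT8, at 6.60, 6.04, and 3.70 FPKM at ZT12, at 5.12, 5.06, and 5.68 FPKM at ZT16, and at 7.23, 4.24, and 6.65 FPKM at ZT20. The highest value of all, 24.9 FPKM, was that of control ZT8 replicate 2. In IH the gene was rhythmic, with a P of 0.00298 and a maximum at ZT5.16 ± 0.94 (SE), and the P was 0.0458 with a spread shared by the conditions. Over all time points its difference of -0.33 ± 0.14 did not pass (adjusted p = 0.392).

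The comparison of level between IH and control asked whether the exposure shifted these genes as a group. At ZT4 and ZT8 together, the time points inside the daily exposure or at its end, 0 of 33 members were higher in IH, against 6.05% of all genes tested, and 2 were lower, Cpt2 and Plin2, against 1.93% of all genes (limma, adjusted p under 0.05). At an unadjusted p under 0.05, 4 members (12.1%) were higher, against 20.1% of all genes, and 2 (6.06%) were lower, against 7% of all genes. The 4 were Ppara (0.28 ± 0.13 SE), Acadl (0.23 ± 0.10), Acaa2 (0.15 ± 0.06), and Cyp4a14, with adjusted p between 0.121 and 0.181. The median difference over the 33 members was 0.09 on the log2 scale, with 25 positive. Over all genes it was 0.04, with 8561 of 13215 positive. With libraries scaled by the median ratio, the member median was 0.03, with 19 positive, against -0.0007 for all genes. With 1 library left out at a time, the number of lower members ran from 0 to 2. Both calls were lost without IH ZT4 replicate 3 (adjusted p = 0.0558 and 0.05325) or control ZT4 replicate 1 (0.0588 and 0.0561), and that of Cpt2 also without IH ZT4 replicate 2 (0.0645) or IH ZT8 replicate 2 (0.0564). In these fits the log2 difference of Cpt2 lay between -0.27 and -0.30, and that of Plin2 was -0.52 and -0.51. The number of higher members was 2, Acadl and Cyp4a14, without control ZT8 replicate 2. Over all time points 0 members were higher (all genes, 0.303%) and 0 were lower (all genes, 0.0530%). At an unadjusted p under 0.05, 1 member, Fgf21, was higher over all time points and 3, Cpt2, Plin2, and Vnn1, were lower, against 8.44% and 2.34% of all genes.

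**Figure D4:**
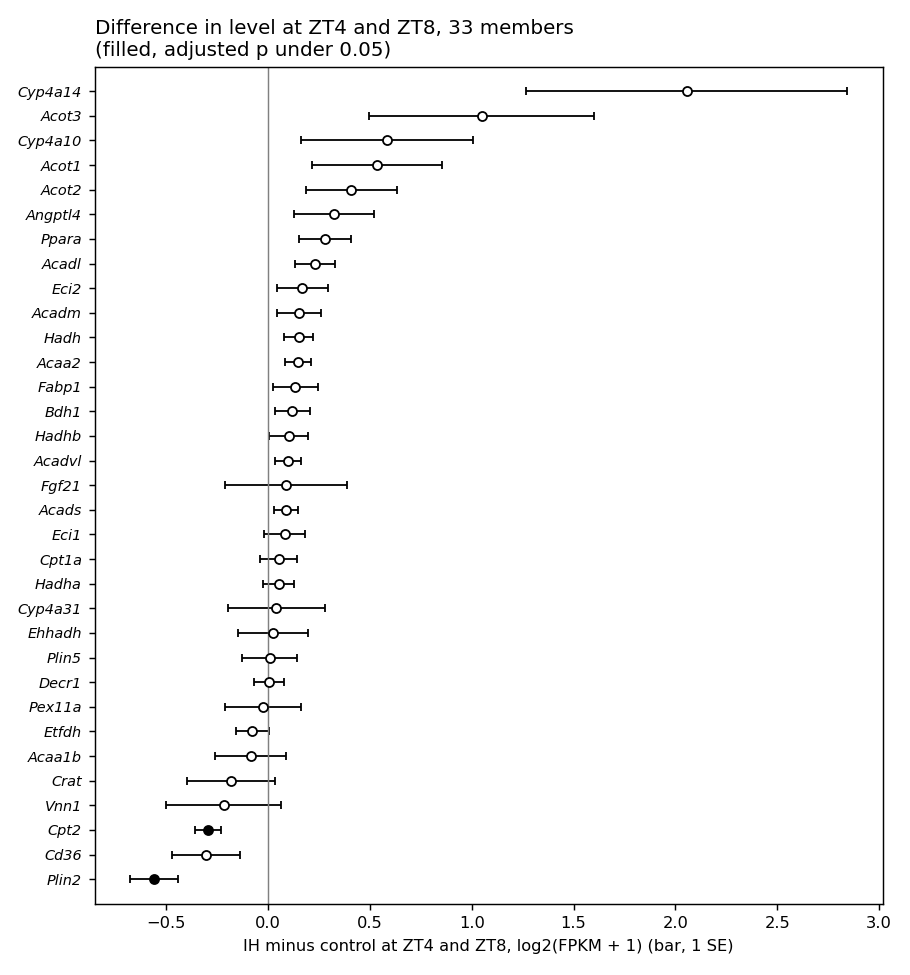
Difference in level between IH and control at ZT4 and ZT8 together (horizontal axis, log2(FPKM + 1); bars, 1 SE; 6 mice per condition) for the 33 members, ordered by size; filled points had an adjusted p under 0.05. Plin2 and Cpt2 are the 2 filled points, both below 0, and Cyp4a14, at 2.06, has the widest bar.

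At single time points 0 of the 198 combinations of member and time point passed (limma, 1 spread over the 12 groups). The shares of all genes that were higher in IH were 0% at ZT0, 0.885% at ZT4, 0.00757% at ZT8, 0.272% at ZT12, 0.00757% at ZT16, and 0% at ZT20. The shares that were lower were 0%, 0.272%, 0%, 0.499%, 0%, and 0% at the same times. At an unadjusted p under 0.05, 5 combinations were higher (Eci2, Cyp4a14, Acot3, and Fgf21 at ZT4 and Plin5 at ZT12), or 2.53% against 6.37% over all genes. Another 10 were lower (Cpt2, Acaa1b, and Plin5 at ZT0, Cpt2 and Plin2 at ZT4 and again at ZT8, Acads and Decr1 at ZT12, and Angptl4 at ZT16), or 5.05% against 3.86%. With weights estimated for each library, which gave control ZT12 replicate 2 a weight of 0.0406, 15 combinations passed after adjustment: 8 members were higher and 2 lower at ZT4, where 24.6% of all genes passed, and 5 were lower at ZT8, where 1.83% passed. The 8 were Acadl, Acadm, Hadh, Acaa2, Eci2, Cyp4a14, Acot3, and Bdh1, the 2 were Cpt2 and Plin2, and the 5 at ZT8 were Cpt2, Crat, Etfdh, Plin2, and Vnn1.

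At ZT4 most members were on the higher side in IH. All 3 IH mice were above all 3 controls for 17 of the 33 members, against 26.7% of all genes, and below them for 2, against 7.79%. The 17 were Fabp1, Cpt1a, Acadvl, Acadl, Acadm, Hadha, Hadhb, Hadh, Acaa2, Eci2, Cyp4a14, Acot1, Acot2, Acot3, Bdh1, Fgf21, and Angptl4. The median difference over the members at ZT4 was 0.23 on the log2 scale, with 29 positive. Over all genes it was 0.07, with 8991 of 13215 positive. With libraries scaled by the median ratio, 15 members were above and 2 below, against 14.9% and 15.1% of all genes. The member median was then 0.12, with 25 positive, against 0.00 for all genes. The hepatocyte marker sum was also higher in IH at this time point: it was 70712, 72961, and 74349 FPKM in the IH mice of ZT4 and 59501, 60131, and 62978 FPKM in the controls. Saa1 was at 2357 and 2435 FPKM in 2 of these 3 controls and at 72.1 FPKM or less in the IH mice. Their part in the result was not tested. At ZT0 the direction was the other way, with a median of -0.26 over the members and 29 of 33 negative, against -0.02 and 55.4% of all genes. IH ZT0 replicate 2, of high Saa1, was the lowest mouse for 25 of the 33, and without it the member median was -0.13, with 24 negative, against 49.6% of all genes. The hepatocyte marker sums of ZT0 overlapped, at 53017, 60758, and 65834 FPKM in IH and 55224, 59700, and 64143 FPKM in control.

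**Figure D5:**
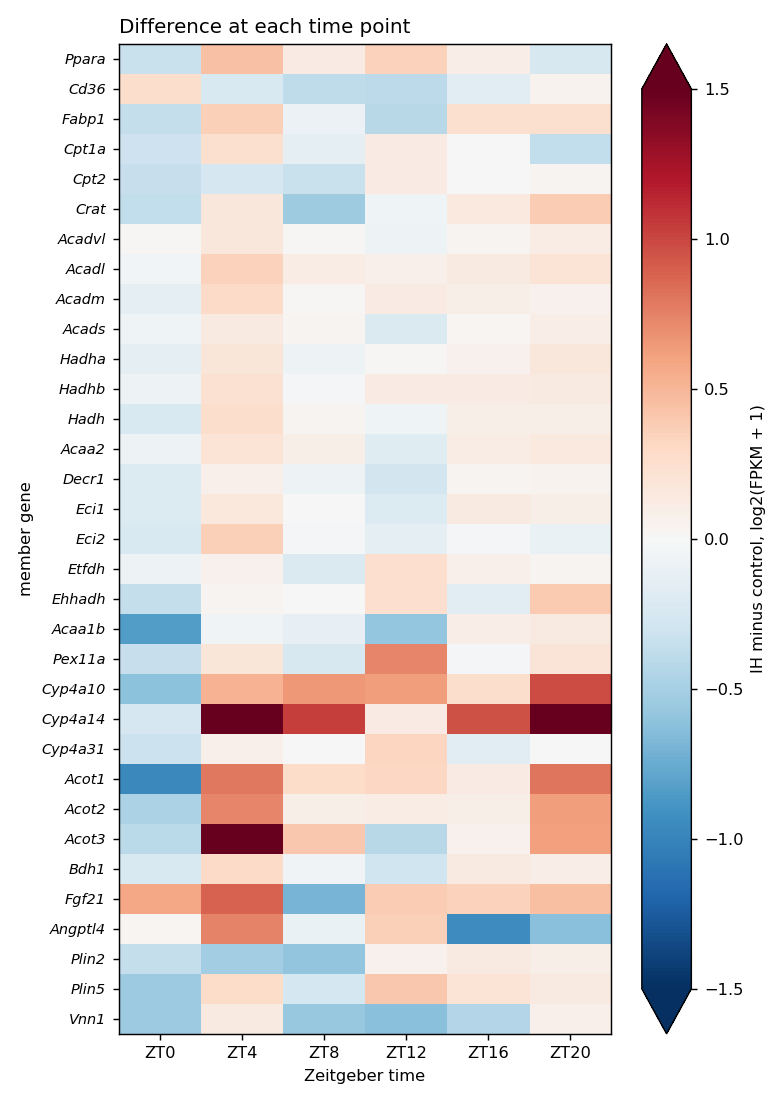
Difference between IH and control (color, log2(FPKM + 1), red higher in IH, color scale ending at 1.5 in either direction) of the 33 members (rows) at each time point (columns). The ZT4 column is red for 29 members and the ZT0 column blue for 29, and no square of the map passed after adjustment. Of the 13215 genes tested, 8991 were higher in IH at ZT4 and 7324 lower at ZT0.

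Of 116 other genes of fatty acid uptake, oxidation, ketone body metabolism, lipolysis, and PPAR-alpha response, 111 were tested. At ZT4 and ZT8 together 4 were higher in IH and 3 lower, against 6.05% and 1.93% of all genes. Over all time points 0 were higher and 0 lower (limma), with 7 and 2 at an unadjusted p under 0.05, against 8.44% and 2.34% of all genes. The median difference at ZT4 and ZT8 was 0.05 with 69 of 111 positive, against 0.04 and 8561 of 13215 over all genes. Among the genes that were lower was Crot, the peroxisomal carnitine octanoyltransferase, whose levels at these times were 100.2 to 231 FPKM in IH, with a median of 145 FPKM, and 136 to 281 FPKM in control, with a median of 199 FPKM (difference -0.41 ± 0.11 on the log2 scale, adjusted p = 0.0410). Abhd5, the coactivator of the lipase ATGL, had a median of 7.19 FPKM in IH and 10.0 FPKM in control and was lower in IH (-0.48 ± 0.07, adjusted p = 0.00972), whereas Pnpla2, which encodes ATGL itself, had medians of 44.5 and 36.3 FPKM and was higher in IH (0.31 ± 0.08, adjusted p = 0.0324). The groups of 6 mice overlapped for each of these 3 genes. Slc16a6, of the monocarboxylate transporter family, was also lower (-0.47 ± 0.12, adjusted p = 0.0410). Cyp4f14, an omega-hydroxylase (0.34 ± 0.07, adjusted p = 0.0165), Acsm1, a medium-chain acyl-CoA synthetase (0.22 ± 0.04, adjusted p = 0.0192), and Tmem97 (0.25 ± 0.06, adjusted p = 0.0343) were higher. The smallest p-values over all time points belonged to Amacr, a racemase of branched-chain oxidation (-0.14 ± 0.04, adjusted p = 0.0916), Crot (-0.29 ± 0.08, 0.138), Acsl3 (0.28 ± 0.09, 0.175), Klb, the coreceptor of FGF21 (0.25 ± 0.09, 0.253), and Aacs (0.56 ± 0.20, 0.267), and none passed. Of the 111, 28 were called rhythmic in control, 61 in IH, with 23 called under both, where the shares of all genes were 20.0%, 39.9%, and 15.5%.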

How the data were processed

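RNA from the liver of 36 mice was measured by paired-end sequencing of stranded polyadenylated libraries with reads of 100 bases. The authors mapped them on mm10 with TopHat2 2.1.1 and Bowtie2 and estimated FPKM with Cufflinks 2.2.1 (versions from the submitters' processing notes), with a maximum of 10000000 fragments per bundle. The annotation, the strand setting of the counting, and any scaling between libraries are not given in the sources used here. The deposited values are FPKM per gene symbol and library, 24883 rows in 1 table per condition, and they hold no counts. Each library summed to between 561964 and 626371 FPKM, except control ZT12 replicate 2, which summed to 808274. Values that span both conditions assume that the 2 tables were made in the same way.

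The 280 symbols on more than 1 row were left out. The 13215 genes averaging 0.1 FPKM or more were analyzed as log2(FPKM + 1) with limma 3.58.1 in R 4.3.3 (trend, moderated tests, Benjamini-Hochberg adjustment over all genes tested). Rhythm was tested with a 24-h cosine in the 18 libraries of each condition, and its difference as the interaction with condition over all 36. Level was tested at ZT4 and ZT8 (12 libraries) and over all time points with time as a factor, and at single time points in a fit of the 12 groups. Mice were taken as replicates by their labels, and where the labels do not say more, p-values measure the spread between these samples. Same-numbered mice of the 2 conditions did not deviate together (mean correlation 0.05, from -0.18 to 0.29), so the numbers were not used as pairs. The members and lists were chosen with earlier results of these data known. All members were described, and of the pathway list the 5 genes of smallest P over all time points, the 5 of smallest P among those called at ZT4 and ZT8, and called genes of at least 100 FPKM were named. Slc16a6 was named in addition, after its values were seen, to complete the called genes. The tests were also run on simulated data with independent libraries and the same spread for both conditions. That setting lacks the larger spread in control and the outlying libraries, so nothing is drawn from it here. Alternatives were other pseudocounts, filters, scalings, rhythm tests (JTK_Cycle, written from its definition), weights, a block for the replicate number, and leaving out libraries; the scalings of the non-overlap at ZT4 and the ZT0 values without IH ZT0 replicate 2 were added after the data were seen. Gene coordinates are those of GENCODE M21 (GRCm38, the same build as mm10). A gene's shared windows are the 50-base or 100-base windows of its GENCODE transcripts found exactly in another gene. Protein sequences were not used here. Figures were drawn with matplotlib 3.10.9 in Python 3.11.15.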

Additional observations from a re-analysis of the deposited data

How the results depend on the processing

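Of 109 counts of members recomputed under alternatives other than leaving out 1 library, 94 stayed within 1.5 times the reported count. A reported 0 that stayed 0 was included in the 94, and several reported counts, such as that of the rhythm difference, were 0. The count rhythmic in control was 7, against 20.0% of all genes. It was 11 with median-ratio scaling (all genes, 22.1%) or library weights (all genes, 31.6%). Without the 3 libraries of high Saa1 it was 12 (all genes, 27.4%), and with JTK_Cycle 4 (all genes, 15.1%). The count rhythmic in IH was 12, against 39.9% of all genes. It was 15 with median-ratio scaling (all genes, 40.2%) and 17 with library weights (all genes, 48.8%). Without the 3 libraries it was 15 (all genes, 42.4%), and with JTK_Cycle 10 (all genes, 27.5%). The count that varied with time in control, 7, was 4 with FPKM rescaled to a common sum, 23 with library weights, and 12 without the 3 libraries. That in IH, 22, was 11 with a spread shared between the conditions. For these counts of variation with time, the shares of all genes under the alternatives were not computed. The 0 combinations at single time points became 1 with median-ratio scaling, 15 with library weights, 4 at a nominal P of 0.01 or less, and 4 with the 6 libraries of each time point alone. Apart from library weights, the shares of all genes under these settings were not computed, so these counts cannot be set against them. At ZT4 alone 4 members were higher and 0 lower, and at ZT8 alone 0 were lower, without a computed share of all genes. The cause of these moves was not tested. With 1 library left out at a time, the counts ran from 6 to 8 and from 11 to 15 (rhythmic in control and in IH), from 5 to 10 and from 15 to 22 (varying with time), from 0 to 2 (higher, and likewise lower, at ZT4 and ZT8), from 0 to 2 (single time points, the 2 without control ZT12 replicate 3), and from 0 to 0 for the rhythm difference and for both directions over all time points. The replicate number as a block left 7 and 12 members rhythmic and 2 lower at ZT4 and ZT8, and gave 6 and 22 that varied with time, so it moved no count by over 1.5 times; the mice are not paired by number. Of 4177 values of single members, 37 lost and 49 gained a call, and 0 called values reversed. Fitted on linear FPKM, all 19 phases of called members stayed within 1 SE. Depth is unknown and limits members near 1 FPKM (Fgf21, Acot2, Acot3) most.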
